A study of Mus musculus with 31 samples.

Results

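The genes of the cytoplasmic ribosomal proteins were examined in mouse embryonic stem cells (mESCs) with and without Ago2, and with and without the site through which Trim71 binds the *Ago2* mRNA. Members were chosen by symbol alone, as protein-coding genes named Rps, Rpl, or Rplp followed by a number, together with *Rpsa* and *Fau*. The rule found 82 genes among the 15034 genes of the RNA-seq table, 32 of the small subunit and 50 of the large subunit. Mitochondrial ribosomal proteins, pseudogenes, and kinases of the Rps6k family were left out, and *Rpl32l* was not analysed here.

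All cells were of the ES-E14TG2a (E14) line. The 2 WT libraries came from cells with an intact *Ago2* gene. The 2 CLIPΔ libraries came from cells in which both copies of the Trim71-binding region had been removed from the 3′UTR of Ago2, the 4 *Ago2* KO libraries from cells with a deletion in Ago2, and the 4 *Ago2* KO/CLIPΔ libraries from cells with both changes, all labelled as biological replicates. Per the study's text, WT cells carried a FLAG-tag on both copies of Trim71, and the mutant lines are listed on this same FLAG-Trim71 background. WT and mutant lines alike were grown from single sorted cells. The labels do not say which clone gave which library. They name a serum medium and a 2i medium, both with Lif, and per the study's text cells for the profiling were kept in the latter.

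A ribosome is built from ribosomal RNA and 1 copy of nearly every ribosomal protein, so the cell needs these proteins in matched amounts. Their mRNAs are among the most abundant of a growing cell and belong to the 5′TOP class, whose transcripts begin with a run of pyrimidines through which mTORC1 signalling sets their translation. Introns of many ribosomal protein genes also hold small nucleolar RNA (snoRNA) genes, which guide the modification of ribosomal RNA. Ago2 is the Argonaute protein that carries miRNAs to their targets, and Trim71 is an RNA-binding protein of stem cells.

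The deposited values are TPM, a level per transcript length, scaled so that each library has the same total, and the depth of the libraries is unknown. Ago2 itself was at 28.2 and 21.6 TPM in WT, at 27.3 and 20.3 TPM in CLIPΔ, at 1.67 to 2.29 TPM in *Ago2* KO, and at 1.51 to 2.87 TPM in *Ago2* KO/CLIPΔ. These levels fit the labels of *Ago2* deletion, but they cannot check those of CLIPΔ, which was like WT. The summed level of 9 markers of embryonic stem cells ran from 11550 to 15043 TPM, and that of 13 markers of fibroblasts, primitive endoderm, and early lineages from 45.3 to 77.4 TPM, with 6 to 8 of the 13 under 1 TPM on average in each genotype. Some libraries stood apart from others of their genotype. Between the WT libraries the median difference of a member was 0.256 on the log2 scale, whereas it was 0.0719 between WT replicate 1 and CLIPΔ replicate 1 and 0.123 between WT replicate 2 and CLIPΔ replicate 2. In *Ago2* KO/CLIPΔ, replicates 1 and 2 (0.0755) and replicates 3 and 4 (0.051) resembled each other more closely than any pair across these sets (0.166 to 0.198). In *Ago2* KO the same pairs were at 0.0873 and 0.0535 and pairs across the sets at 0.0822 to 0.168, so they overlapped. Whether such libraries were prepared together was not given in the sources used here, so p-values measure the spread between these libraries.

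In WT cells, ribosomal protein genes were among the most abundant transcripts. Of the 82 members, 53 had a mean above 1000 TPM and 42 were among the 100 genes with the highest WT mean, and the median member was at 1459 TPM. The highest levels were those of *Rpl8* (12501 and 12890 TPM), which encodes a large-subunit protein near the peptidyl transferase center, and of *Rplp1* (12042 and 11500 TPM), an acidic protein of the ribosomal stalk. They were followed by *Rps21* (6955 and 7162 TPM), *Rps15* (6275 and 6743 TPM), and *Rpl4* (6125 and 5193 TPM).

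At the other end, 4 members were below 100 TPM. *Rpl3l*, the striated muscle relative of *Rpl3*, was at 1.98 and 2.96 TPM, and *Rpl39l*, a relative of *Rpl39* known from testis, was at 41.0 and 39.0 TPM. *Rpl29* (10.4 and 15.7 TPM) and *Rpl21* (47.2 and 52.1 TPM) are ordinary subunits, followed upwards by *Rpl30* (210 and 164 TPM). Many members have processed pseudogenes, near-identical copies that can share reads. RefSeq describes 279 pseudogenes for 58 of the 82 members, with a median of 2 per member and up to 23 for *Rpl31*, and 5 for *Rpl29*. How reads matching several copies were counted was not given in the sources used here, so levels of these members are uncertain.

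The order of the members' levels was nearly the same in every genotype. Across the 82 members, the Spearman correlation with the WT means was 0.995 for CLIPΔ, 0.955 for *Ago2* KO, and 0.962 for *Ago2* KO/CLIPΔ.

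Added over all members, ribosomal protein genes took between 15.1% and 18.7% of all TPM. Their share was 17.2% and 15.7% in WT, 17.1% and 16.5% in CLIPΔ, 15.1%, 15.7%, 16.6%, and 17.2% in *Ago2* KO, and 17.3%, 16.8%, 18.7%, and 18.6% in *Ago2* KO/CLIPΔ. The means were 16.4% ± 1.10 (SD, n = 2), 16.8% ± 0.382 (SD, n = 2), 16.1% ± 0.956 (SD, n = 4), and 17.9% ± 0.945 (SD, n = 4). The ranges overlapped between WT and every other genotype. The balance between the subunits differed more clearly. The summed level of large-subunit genes over that of small-subunit genes was 1.40 and 1.48 in WT and 1.43 and 1.46 in CLIPΔ, and 1.58 to 1.60 in *Ago2* KO and 1.56 to 1.63 in *Ago2* KO/CLIPΔ, so the libraries without Ago2 did not overlap with those that had it. The 10 most abundant members made up 36.4% to 42.7% of the summed level, so these sums follow few genes, and the ratio was not tested.

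**Figure D1:**
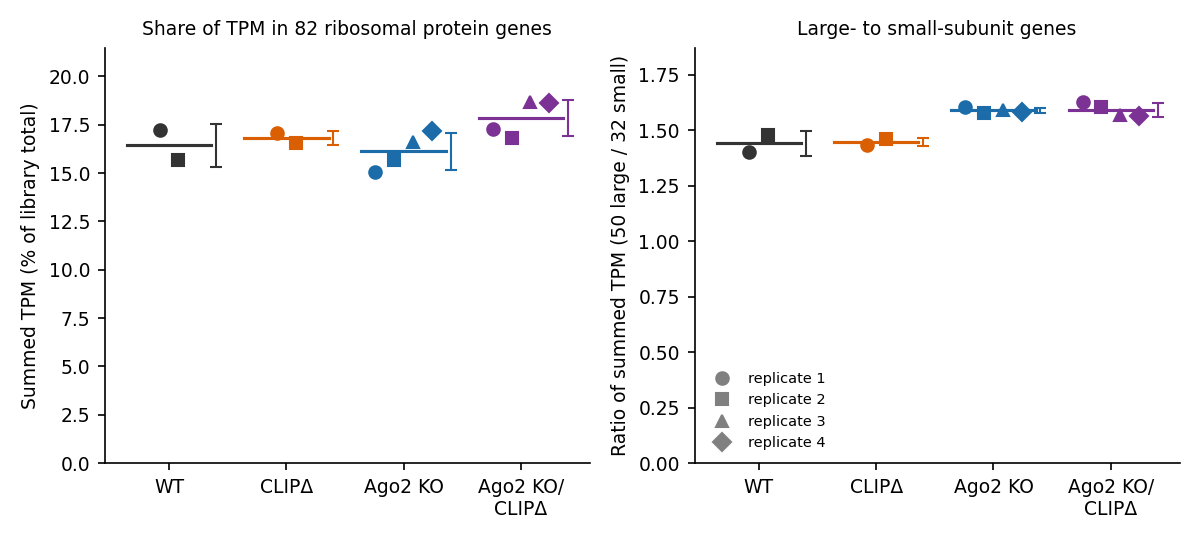
Summed TPM of the 82 ribosomal protein genes as a percentage of the library total (left) and the ratio of summed TPM of 50 large- to 32 small-subunit genes (right), by genotype, with 1 point per library, the line at the mean, and the bar ± SD (n = 2, 2, 4, and 4). The share overlaps between WT and each mutant, while the ratio is 1.40 to 1.48 in cells with Ago2 and 1.56 to 1.63 in cells without it.

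Removing the Trim71-binding site from Ago2 moved 1 of the 82 members past the threshold, *Rpl39l*. Tests were made with limma on log2(TPM + 1) over the 11287 genes that averaged 1 TPM or more, all 82 members among them, with a Benjamini-Hochberg adjusted p under 0.05 as the threshold, and fold changes are on the log2(TPM + 1) scale, which understates the change of low genes. Of all genes tested, 1.46% were higher and 0.806% lower in CLIPΔ than in WT, against 1 and 0 of the 82 members. At an unadjusted p under 0.05, 2 members passed, beside 12.9% of all genes. The fit held no replicate block, although WT and CLIPΔ libraries of the same number deviated together (correlation of 0.715 over all genes). The median log2 fold change of the members was 0.03, beside -0.05 for all genes, and it ran from -0.05 without WT replicate 2 to 0.16 without WT replicate 1.

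*Rpl39l* encodes a near copy of *Rpl39*, a small protein that lines the tunnel through which the new peptide leaves the ribosome. In WT it was at 41.0 and 39.0 TPM and in CLIPΔ at 84.9 and 75.3 TPM, so both CLIPΔ libraries lay above both WT libraries. The log2 fold change was 0.98 ± 0.14 (SE, adjusted p = 0.0037). The call was kept without any 1 of these 4 libraries (0.90 to 1.07, adjusted p from 0.0075 to 0.039), but not when the fit held only WT and CLIPΔ (adjusted p = 0.49) or, in an alternative added after seeing the data, when replicates 1 and 2 and replicates 3 and 4 of the genotypes without Ago2 were averaged (adjusted p = 0.059). *Rpl39* was at 542 and 366 TPM in WT and at 494 and 397 TPM in CLIPΔ, with a log2 fold change of -0.0073 ± 0.27 (SE, adjusted p = 0.99).

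The coding sequences of *Rpl39* and *Rpl39l* are shown because reads of the pair must be told apart by their differences. Each has 156 bases, of which 23 differ, 16 of them at the third position of a codon, and the identity is 85.3%. They are given 5′ to 3′ in the coding sense from GENCODE vM21 (GRCm38), where *Rpl39* lies on the minus strand of chrX:37082520-37085402 and *Rpl39l* on the plus strand of chr16:10170226-10174630, with the differing bases in capitals.
Rpl39: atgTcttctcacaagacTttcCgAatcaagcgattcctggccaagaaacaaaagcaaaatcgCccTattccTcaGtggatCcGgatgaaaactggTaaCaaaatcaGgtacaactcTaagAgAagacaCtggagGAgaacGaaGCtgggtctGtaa
Rpl39l: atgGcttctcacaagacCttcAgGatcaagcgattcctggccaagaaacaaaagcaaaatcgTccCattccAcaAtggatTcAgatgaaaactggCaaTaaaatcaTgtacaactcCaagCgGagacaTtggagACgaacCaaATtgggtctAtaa
The differences are spread over 21 of the 52 codons, and RefSeq describes no pseudogene of *Rpl39l* and 1 of *Rpl39*.

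In cells without Ago2, *Rpl39l* kept the same order between the CLIPΔ and the unedited site at a lower level. It was at 31.5, 31.2, 35.4, and 35.8 TPM in *Ago2* KO and at 48.2, 45.8, 56.2, and 61.7 TPM in *Ago2* KO/CLIPΔ, and these groups did not overlap. Its log2 fold change of *Ago2* KO/CLIPΔ over *Ago2* KO was 0.64 ± 0.10 (SE, adjusted p = 0.014). The call was lost without *Ago2* KO replicate 1, *Ago2* KO replicate 2, or *Ago2* KO/CLIPΔ replicate 3 (adjusted p from 0.063 to 0.065), with replicates 1 and 2 only (0.57, adjusted p = 0.21), and with the averaged replicates (adjusted p = 1.0). Loss of Ago2 lowered *Rpl39l* in the CLIPΔ cells by a log2 fold change of -0.59 ± 0.12 (SE, adjusted p = 0.0021), which fell short once values were centred on the library median (-0.26, adjusted p = 0.059) and when the relation to GC content was removed, an alternative added after seeing the data (-0.12, adjusted p = 0.30), and its difference between *Ago2* KO and WT did not pass (-0.25 ± 0.12, SE, adjusted p = 0.099). The interaction term, which tests whether the effect of CLIPΔ differs with and without Ago2, was -0.34 ± 0.17 for *Rpl39l* (SE, adjusted p = 0.69).

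**Figure D2:**
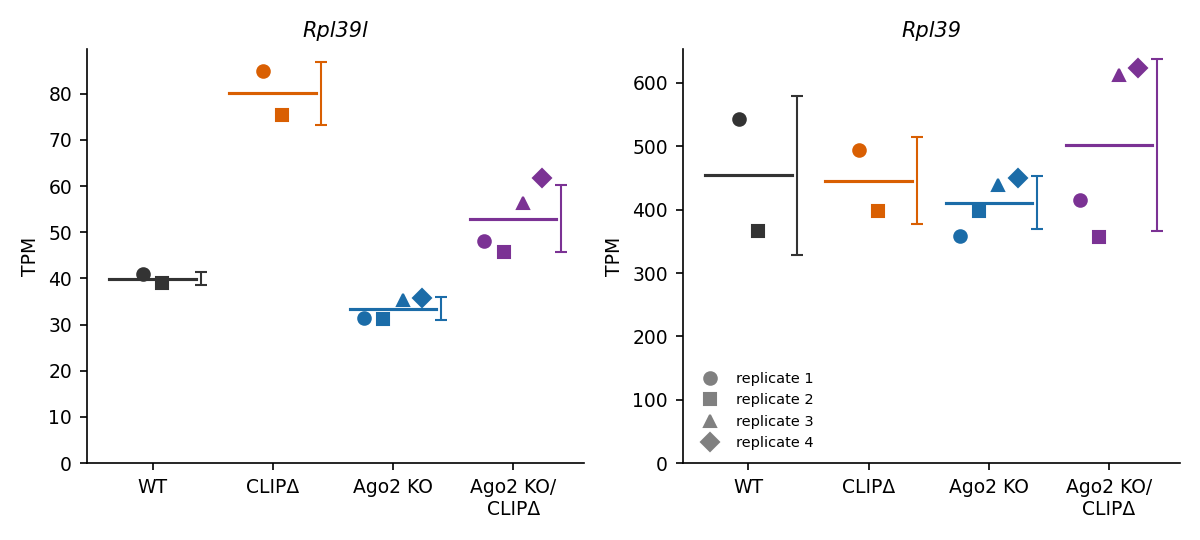
TPM of *Rpl39l* (left) and *Rpl39* (right) by genotype, with 1 point per library, the line at the mean, and the bar ± SD (n = 2, 2, 4, and 4). *Rpl39l* is at 75.3 and 84.9 TPM in CLIPΔ and at most 61.7 TPM in every other library, while *Rpl39* overlaps between all genotypes.

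In *Ago2* KO against WT, 15 of the 82 members were higher and 29 lower, and 38 did not pass. As a share of the members this is 18.3% higher and 35.4% lower, near the 14% of all genes that were higher and the 42.4% that were lower. The median log2 fold change was -0.13 for the members and -0.26 for all genes, and 50 of the 82 members lay above the median of all genes. Libraries with and without Ago2 may also differ in how they were prepared, which the sources used here do not give, so preparation and genotype cannot be told apart, and in bulk RNA neither can fewer expressing cells and less RNA per cell. The small subunit had 5 members higher and 11 lower (median -0.19), and the large subunit 10 higher and 18 lower (median -0.09).

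TPM values are relative to each library's total, so the split depends on the scale. Centring each library on its median moved the median fold change of all genes from -0.26 to 0.09, and the members then had 35 higher and 8 lower, with a median of 0.22, beside 31.5% of all genes higher and 21% lower. The 15 higher members were called under the total, under the median, and under the total without the members. Of the 29 lower members, 8 were called lower under all of these, among them *Rpl22*, *Rpl23*, *Rpl23a*, *Rpl34*, *Rps26*, *Rps27*, and *Rps27a*. The other 21 did not keep a call of lower on every scale. When replicates 1 and 2 and replicates 3 and 4 of the genotypes without Ago2 were averaged, an alternative added after seeing the data, 8 members were higher and 16 lower, beside 6.02% and 25.5% of all genes. The WT libraries also weighed on the count, which was 16 higher and 15 lower without WT replicate 1 (7.5% and 29.7% of all genes) and 10 higher and 32 lower without WT replicate 2 (16.7% and 40.7%).

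Among the members that were lower in *Ago2* KO on every scale, *Rpl23a* had the largest difference. It encodes a protein at the exit of the peptide tunnel, where nascent chains meet their chaperones. It was at 775 and 627 TPM in WT and at 269, 308, 308, and 266 TPM in *Ago2* KO, with no overlap. The log2 fold change was -1.28 ± 0.14 (SE, adjusted p = 7.0e-05). *Rps27*, a zinc-finger protein of the small subunit, was at 3740 and 2377 TPM in WT and at 1286 to 1614 TPM in *Ago2* KO, a log2 fold change of -1.01 ± 0.24 (SE, adjusted p = 0.0042). *Rps27a*, made as a fusion to ubiquitin, was at 1384 and 725 TPM in WT and at 505 to 529 TPM in *Ago2* KO (-0.96 ± 0.20, SE, adjusted p = 0.0022). For both genes the WT libraries differed widely from each other, while the *Ago2* KO libraries lay close together and below them.

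*Rps26*, which lies at the mRNA exit channel of the small subunit, fell more evenly. It was at 4025 and 4170 TPM in WT and at 2236 to 2596 TPM in *Ago2* KO, a log2 fold change of -0.75 ± 0.09 (SE, adjusted p = 9.9e-05). *Rpl34* went from 634 and 481 TPM to between 302 and 348 TPM (-0.79 ± 0.13, SE, adjusted p = 0.00066). In both genes the groups did not overlap.

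The largest rise was that of *Rpl29*, a heparin-binding protein of the large subunit, from 10.4 and 15.7 TPM in WT to 43.1, 42.4, 31.0, and 47.2 TPM in *Ago2* KO, a log2 fold change of 1.59 ± 0.21 (SE, adjusted p = 0.00015). It remained far below the typical member and has 5 described pseudogenes. *Rpl27* rose from 635 and 399 TPM to between 911 and 1059 TPM (0.94 ± 0.16, SE, adjusted p = 0.00055). *Rpl41*, which encodes the shortest ribosomal protein, a peptide that bridges the subunits, rose from 3026 and 4126 TPM to between 5283 and 6556 TPM (0.76 ± 0.13, SE, adjusted p = 0.0007). *Fau*, made as a fusion of a ubiquitin-like protein to the small-subunit protein eS30, rose from 1550 and 1299 TPM to between 2040 and 2247 TPM (0.60 ± 0.10, SE, adjusted p = 0.00047). All libraries without Ago2 were above both WT libraries for each of these genes.

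Proteins that work together did not all pass in one direction. In the stalk, which recruits translation factors, *Rplp0* was higher in *Ago2* KO (1560 and 1576 TPM in WT, 1847 to 2056 TPM in *Ago2* KO, log2 fold change 0.33, adjusted p = 0.0044), and *Rplp1* did not pass (0.06, adjusted p = 0.63). *Rplp2* was lower on the TPM scale (3073 and 2785 TPM in WT, 1834 to 2116 TPM in *Ago2* KO, log2 fold change -0.56, adjusted p = 0.00051) and no longer passed in the centred values (-0.21). *Rpl5* and *Rpl11*, which bind *Mdm2* together with the 5S rRNA when ribosome assembly is disturbed, were lower on the TPM scale (-0.40, adjusted p = 0.027, and -0.30, adjusted p = 0.043), with signs that turned once the relation to GC content was removed for *Rpl5* (0.25) and in the centred values for *Rpl11* (0.05). *Rps6*, the substrate of S6 kinase (0.05, adjusted p = 0.69), *Rps19*, mutated in Diamond-Blackfan anemia (0.08, adjusted p = 0.50), and *Rpsa*, also known as the laminin receptor (-0.14, adjusted p = 0.23), did not pass.

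Loss of Ago2 in CLIPΔ cells gave like values. Its fold changes come from other libraries than those of *Ago2* KO against WT, but the fit over all 12 libraries set the spread for both comparisons. WT and CLIPΔ libraries of the same number also deviated together, so the 2 comparisons are not independent. In *Ago2* KO/CLIPΔ against CLIPΔ, 20 members were higher and 21 lower, and 41 did not pass, beside 12.8% of all genes higher and 42.1% lower. The median was -0.09 for the members and -0.25 for all genes. In the centred values, 35 members were higher and 2 lower, *Rpl22* and *Rpl23a*, with a median of 0.24, beside 30.1% and 21% of all genes. The 20 higher members were called under all 3 scales. Without CLIPΔ replicate 1, 16 members were higher and 9 lower (5.29% and 27.4% of all genes), and with the averaged replicates 8 were higher and 6 lower (4.55% and 24%).

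Of the members called in each background, 15 were higher in both, 18 were lower in both, and none was called in opposite directions. As shares of the 82 members these are 18.3% and 22.0%, beside 9.44% of all genes higher in both, 35.2% lower in both, and 0.292% called in opposite directions. The 15 higher in both make up 34.1% of the 44 members called in *Ago2* KO against WT and 36.6% of the 41 called in *Ago2* KO/CLIPΔ against CLIPΔ, and the 18 lower in both 40.9% and 43.9%. These counts are on the TPM scale. On all 3 scales the 15 were called higher in both, but of the 18 only *Rpl22* and *Rpl23a* were called lower in both. Across the 82 members, fold changes in the 2 backgrounds had a Pearson correlation of 0.916 and a Spearman correlation of 0.919, beside 0.859 and 0.866 over all 11287 genes tested. Genes share libraries and are not independent, so these describe the members only.

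The leading genes were largely shared. *Rpl23a* was at 763 and 534 TPM in CLIPΔ and at 304, 280, 302, and 338 TPM in *Ago2* KO/CLIPΔ, a log2 fold change of -1.06 ± 0.14 (SE, adjusted p = 0.00021). *Rpl22*, an RNA-binding protein at the surface of the large subunit, fell from 663 and 554 TPM in WT to between 279 and 323 TPM in *Ago2* KO (-0.99, adjusted p = 0.00086), and from 620 and 578 TPM in CLIPΔ to between 283 and 440 TPM in *Ago2* KO/CLIPΔ (-0.76, adjusted p = 0.0043). The call in the CLIPΔ background was lost when the relation to GC content was removed (-0.31), an alternative added after seeing the data. In the same background, values of the next genes are from CLIPΔ to *Ago2* KO/CLIPΔ. *Rpl27* rose from 585 and 466 TPM to between 1049 and 1138 TPM (1.05 ± 0.16, SE, adjusted p = 0.00035), *Rpl41* from 3518 and 4097 TPM to between 6017 and 6412 TPM (0.73 ± 0.13, SE, adjusted p = 0.00098), and *Fau* from 1608 and 1392 TPM to between 2192 and 2412 TPM (0.62 ± 0.10, SE, adjusted p = 0.00047). *Rpl29* rose less in this background (15.0 and 18.3 TPM to between 23.1 and 35.5 TPM, log2 fold change 0.69, adjusted p = 0.015), and its interaction term of -0.90 ± 0.29 did not pass (SE, adjusted p = 0.35).

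The abundant members were found on both sides. *Rpl8* was at 12501 and 12890 TPM in WT and at 14306 to 15931 TPM in *Ago2* KO (log2 fold change 0.27, adjusted p = 0.024), and at 15802 to 17270 TPM in *Ago2* KO/CLIPΔ (0.37 against CLIPΔ, adjusted p = 0.0049). When the relation to GC content was removed, an alternative added after seeing the data, *Rpl8* (0.17) and *Rps15* (0.20) no longer passed in *Ago2* KO against WT. *Rps21*, the third most abundant member in WT, was at 4425 to 5595 TPM in *Ago2* KO and 5567 to 6184 TPM in *Ago2* KO/CLIPΔ, below the 6955 TPM of the lower WT library (-0.49, adjusted p = 0.0021, and -0.30, adjusted p = 0.028), and no longer passed in the centred values (-0.15 and 0.03). Among the other members that were higher in both backgrounds, *Rpl10a*, *Rpl13*, *Rpl13a*, *Rpl32*, *Rps15*, and *Rps16* had log2 fold changes from 0.29 to 0.60 in *Ago2* KO against WT and from 0.39 to 0.59 in *Ago2* KO/CLIPΔ against CLIPΔ. Members lower in both included *Rpl38*, which favours the translation of Hox mRNAs in the embryo (-0.59, adjusted p = 0.0036, and -0.43, adjusted p = 0.020), and *Rpl4*, a protein of the peptide tunnel (-0.61, adjusted p = 0.0012, and -0.50, adjusted p = 0.0041), which did not pass in the centred values of both comparisons (-0.24 and -0.10 for *Rpl38*, -0.27 and -0.17 for *Rpl4*). Called in *Ago2* KO/CLIPΔ against CLIPΔ and not in *Ago2* KO against WT were 8 members, higher for *Rpl18*, *Rpl28*, *Rpl36*, *Rplp1*, and *Rps9* and lower for *Rpl10l*, *Rpl30*, and *Rpl39l*, and their interaction terms did not pass. None of the 3 lower calls was kept in the centred values (0.060, -0.084, and -0.26).

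**Figure D3:**
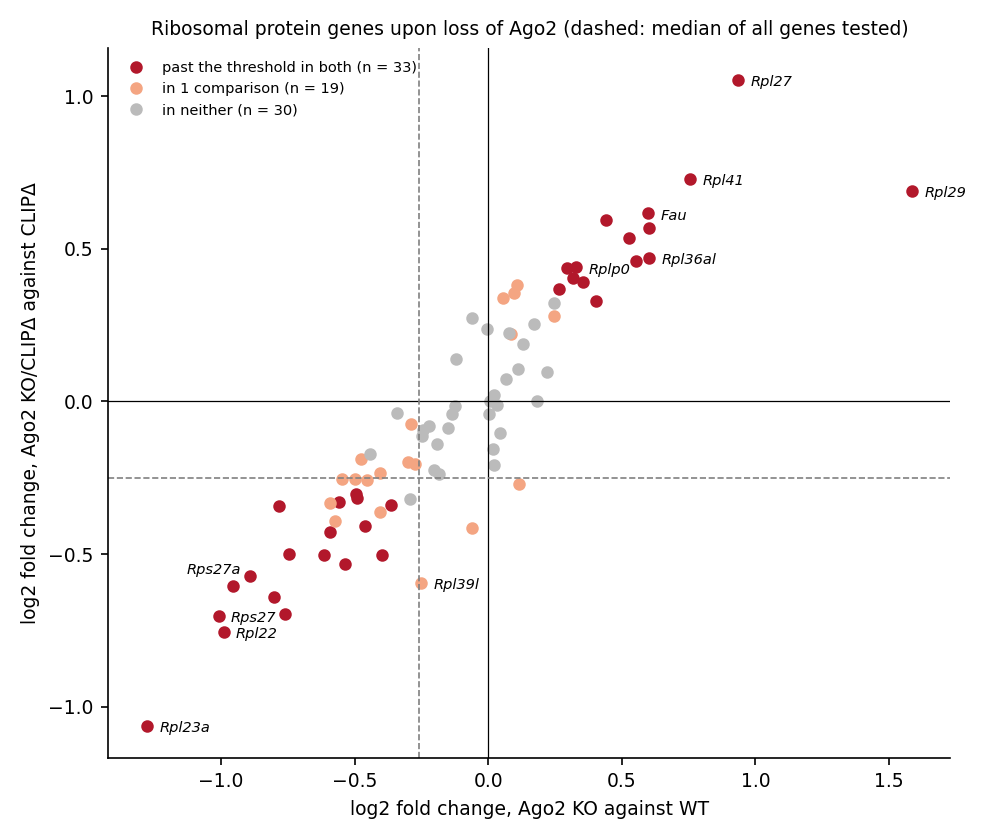
log2 fold change of each of the 82 ribosomal protein genes upon loss of Ago2 with the Trim71 site present (x axis, *Ago2* KO against WT) and with it removed (y axis, *Ago2* KO/CLIPΔ against CLIPΔ), with the median of all genes tested as dashed lines. Points follow the diagonal, with 33 members past the threshold in both comparisons, 19 in 1, and 30 in neither.

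In 2 of 7 pairs of related genes, the share of the second gene did not overlap between libraries with and without Ago2. The share of a pair is the TPM of the second gene over the sum of both, and these shares were not tested. *Rps27l*, a relative of *Rps27* induced by p53 in other cells, took 10.5% and 11.1% of the *Rps27* pair in WT, 11.8% and 14.1% in CLIPΔ, 19.6% to 24.9% in *Ago2* KO, and 16.4% to 22.9% in *Ago2* KO/CLIPΔ. *Rps27l* itself was at 439 and 297 TPM in WT and at 393 to 425 TPM in *Ago2* KO (log2 fold change 0.18, adjusted p = 0.24), beside -1.01 for *Rps27*. In the centred values the fold changes were 0.53 for *Rps27l* and -0.66 for *Rps27*, so the part of each gene in the shares depends on the scale.

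In the *Rpl36a* pair, both genes moved on the TPM scale. *Rpl36al* took 27.5% and 35.8% in WT, 31.3% and 35.9% in CLIPΔ, 50.2% to 52.2% in *Ago2* KO, and 44.1% to 49.5% in *Ago2* KO/CLIPΔ. *Rpl36al* rose from 511 and 559 TPM in WT to between 771 and 830 TPM in *Ago2* KO (0.60 ± 0.08, SE, adjusted p = 0.00018), whereas *Rpl36a* went from 1349 and 1000 TPM to between 706 and 823 TPM (-0.59 ± 0.16, SE, adjusted p = 0.0077, and -0.24 in the centred values). *Rpl36al* also rose in *Ago2* KO/CLIPΔ against CLIPΔ (0.47 ± 0.08, SE, adjusted p = 0.00081).

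The other pairs did not separate in this way, and *Rpl3l* took 0.153% to 0.264% beside *Rpl3* and *Rpl7l1* 11.4% to 16.9% beside *Rpl7* over all libraries. *Rpl10l*, a copy of *Rpl10* known from male germ cells, was at 1231 and 1337 TPM in WT beside 1100 and 807 TPM for *Rpl10*, and took 52.8% to 65.1% of the pair over all 12 libraries. Its log2 fold change in CLIPΔ against WT was 0.38 ± 0.10 (SE, adjusted p = 0.089), and this was the second of the 2 members with an unadjusted p under 0.05. *Rpl22l1*, a relative of *Rpl22* outside the rule, took 25.2% to 35.7%, since it was lower together with *Rpl22* (log2 fold change -1.04 in *Ago2* KO against WT, adjusted p = 0.0049). The coding sequences are 62.3% identical for the *Rps27* pair, 87.9% for the *Rpl36a* pair, 84.8% for the *Rpl10* pair, and 67.5% for the *Rpl22* pair, so part of the reads of the closer pairs could have been assigned to either gene.

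**Figure D4:**
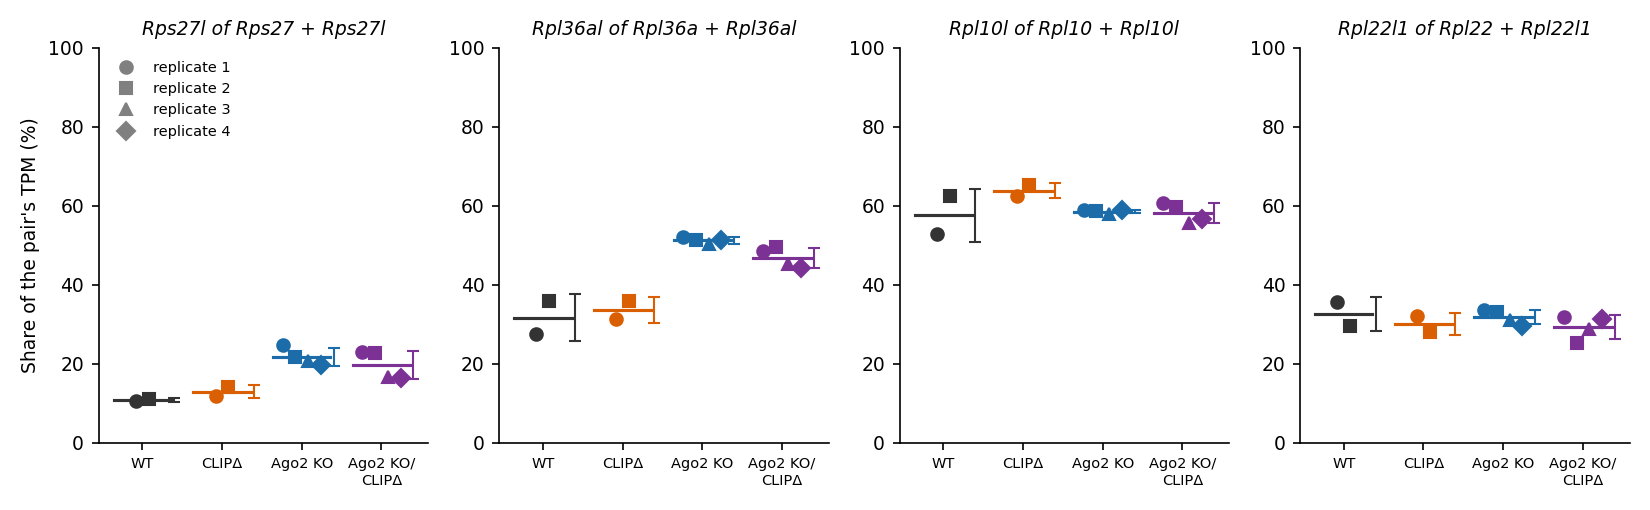
Share of a pair's summed TPM taken by the second gene, in percent, for *Rps27l*, *Rpl36al*, *Rpl10l*, and *Rpl22l1* by genotype, with 1 point per library, the line at the mean, and the bar ± SD (n = 2, 2, 4, and 4). *Rps27l* and *Rpl36al* take larger shares in all libraries without Ago2 than in any with it, while *Rpl10l* and *Rpl22l1* overlap.

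With Ago2 absent, CLIPΔ changed 1 of 82 members past the threshold, *Rpl39l*, beside 0.275% of all genes higher and 0.602% lower in *Ago2* KO/CLIPΔ than in *Ago2* KO. At an unadjusted p under 0.05, 20 members passed, beside 11% of all genes. A fold change above 0 was found for 71 of the 82, beside 37.1% of all genes, and the median was 0.14 beside -0.04 for all genes. The 20 include *Rpl34* (302, 312, 320, and 348 TPM in *Ago2* KO and 361, 393, 436, and 453 TPM in *Ago2* KO/CLIPΔ, log2 fold change 0.35, adjusted p = 0.21) and *Rps29*, a small-subunit protein (1608 to 1760 TPM and 2045 to 2332 TPM, log2 fold change 0.39, adjusted p = 0.19). Neither gene overlapped between the groups. The count differed between sets of replicates, which were also fitted differently. With replicates 1 and 2 only, fitted over all 4 genotypes, 0 members passed (2 libraries a group). With replicates 3 and 4 only, fitted over the 2 genotypes without Ago2, 48 were higher and 2 lower, beside 22.8% of all genes higher and 15.1% lower. The spread thus came from different libraries, and the part of the replicates in these counts was not tested. The members' median was 0.10 and 0.16 in these sets, and *Ago2* KO/CLIPΔ replicates 3 and 4 had the highest summed shares of all 12 libraries (18.7% and 18.6%).

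No member passed in the interaction of CLIPΔ and *Ago2* KO, beside 0.647% of all genes. With limma, 3 members had an unadjusted p under 0.05, beside 8.01% of all genes, and the lowest adjusted p was 0.33. The members' terms ran from -0.90 for *Rpl29* to 0.44 for *Rpl34*.

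Fold changes upon loss of Ago2 rose with the GC content of the transcript. Across the 82 members, the Spearman correlation between GC content and the fold change was 0.426 in *Ago2* KO against WT and 0.558 in *Ago2* KO/CLIPΔ against CLIPΔ, beside 0.529 and 0.544 over 10842 genes. It was -0.199 in CLIPΔ against WT and 0.0414 in *Ago2* KO/CLIPΔ against *Ago2* KO. The median GC content was 54.9% for the 15 members higher in both backgrounds, 49.0% for the 18 lower in both, and 51.8% for all 82. Transcript length differed little between these sets (medians of 661, 657, and 732 bases). When the relation to GC content was removed, an alternative added after seeing the data, 25 members were higher and 14 lower in *Ago2* KO against WT, beside 24.6% and 23.3% of 10842 genes. In *Ago2* KO/CLIPΔ against CLIPΔ, 29 were higher and 4 lower, beside 23.1% and 21%. Whether GC content has a part in the result was not tested.

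**Figure D5:**
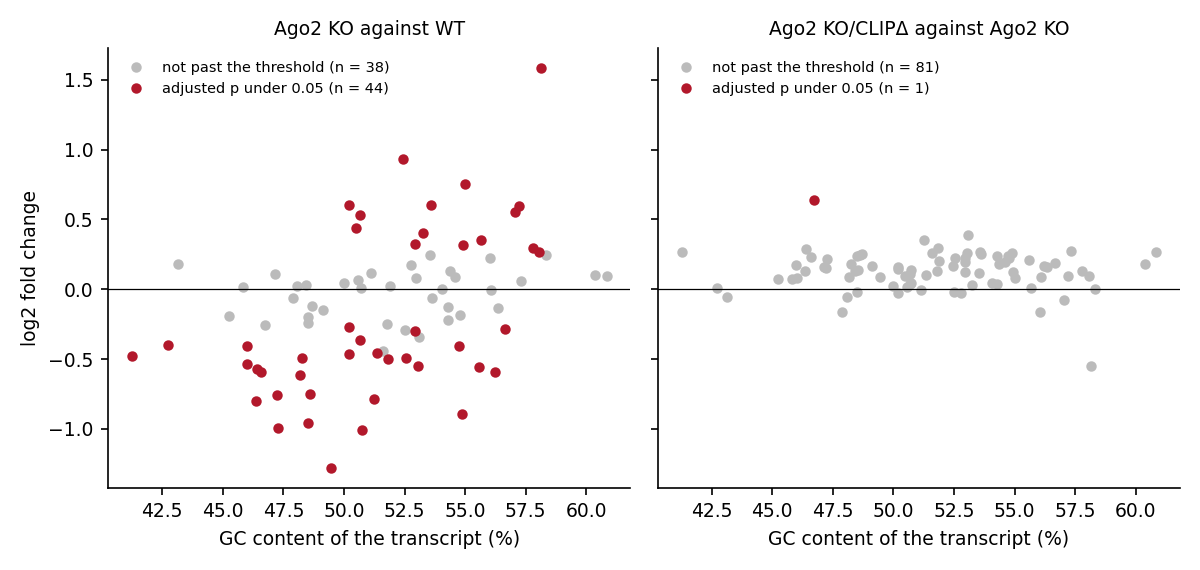
log2 fold change of each of the 82 ribosomal protein genes against the GC content of its transcript in percent, for *Ago2* KO against WT (left) and *Ago2* KO/CLIPΔ against *Ago2* KO (right), with members past the threshold in red. On the left, fold changes rise with GC content (Spearman correlation 0.426), and on the right they do not (0.0414).

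Start sites were searched for the pyrimidine runs of the 5′TOP class. In the window from 20 bases before to 10 after the RefSeq start, a run of at least 7 C or T on the transcript strand was found in 34 of the 62 members with an entry (54.8%), beside 1899 of 8795 other tested genes (21.6%). The run was in 5 of 10 members higher in both backgrounds and in 8 of 14 lower in both. Windows of the called members with the lowest adjusted p that had an entry, 3 lower and 3 higher in *Ago2* KO, are shown to compare the sets, from RefSeq on GRCm38.p6, 5′ to 3′ on the transcript strand, with the longest run in capitals. *Rps26* is at chr10:128626497-128626526 (minus), *Rplp2* at chr7:141447631-141447660 (plus), *Rpl34* at chr3:130730328-130730357 (minus), *Rpl36al* at chr12:69184058-69184087 (minus), *Fau* at chr19:6057927-6057956 (plus), and *Rpl27* at chr11:101442225-101442254 (plus).
Rps26, lower: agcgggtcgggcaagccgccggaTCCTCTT
Rplp2, lower: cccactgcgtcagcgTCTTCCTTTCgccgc
Rpl34, lower: ccgCCCCTTCCTTTTCCTCTTCCggggacg
Rpl36al, higher: gttcgcaTTCCCgtcgctcaggttcagttc
Fau, higher: ggacgtgcgcgcccccaCTTCTTCCTCTTT
Rpl27, higher: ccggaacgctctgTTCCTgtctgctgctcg
The 3 lower genes and *Fau* have runs of 7 to 20 bases, and *Rpl36al* and *Rpl27* have runs of 5. For *Rps26* and *Fau* the run reaches the last base of the window, so its length there is a minimum. A run in the window is a match of letters and does not show where transcription starts in these cells.

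The Trim71 CLIP-seq, which crosslinks the protein to RNA and sequences the bound fragments, gave 498 peaks in the deposited list, common to both immunoprecipitated samples. Of these, 11 were in 8 members, 2.21% of the peaks, among them *Rpl3*, *Rpl4*, *Rpl7a*, *Rpl13*, *Rpl13a*, *Rpl23*, and *Rpl23a*. None of the 11 overlapped an exon of the member's coding transcript. All 11 overlapped a snoRNA gene on the same strand inside the member, beside 26 of the 487 other peaks (5.34%). The deposited annotation classed 5 of the 11 as 3′UTR, 1 as 5′UTR, and 5 as intron. In all, 29 members hold 59 snoRNA genes.

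The most reads were in *Rpl3*, with 57974 in the peak at *Snord83b* and 33786 in the peak at *Snord43*. *Rpl13* had 11888 reads at *Snord68* and *Rpl4* had 9603 reads at *Gm23344*, and the 6 peaks with the fewest had 223 to 3900 reads. The median was 3900 reads for peaks in members and 2280.5 for all peaks. The list gives 1 count per peak with no replicates, and these counts include no correction for the abundance of the snoRNA.

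The loci in *Rpl3* and *Rpl13* are shown because they are among those with the most reads and their peaks cover the 5′ part of the printed stretch. Sequences are from GRCm38.p6, 5′ to 3′ on the strand of the gene, from the first to the last base of the snoRNA gene and the peak together, with bases of the peak in capitals. The stretch with *Snord83b* is chr15:80078498-80078591 (minus), that with *Snord43* chr15:80082859-80082921 (minus), and that with *Snord68* chr8:123103032-123103123 (plus). The peaks begin 15 bases before the annotated *Snord43* gene and 6 bases before *Snord68*.
Snord83b in Rpl3: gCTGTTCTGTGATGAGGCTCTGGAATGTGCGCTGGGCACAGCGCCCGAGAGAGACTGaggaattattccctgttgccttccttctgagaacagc
Snord43 in Rpl3: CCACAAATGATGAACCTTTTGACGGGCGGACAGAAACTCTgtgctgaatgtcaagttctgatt
Snord68 in Rpl13: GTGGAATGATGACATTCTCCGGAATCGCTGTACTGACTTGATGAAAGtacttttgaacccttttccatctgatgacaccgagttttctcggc
All 3 of these peaks hold TGATGA, the letters of box C, an element of C/D box snoRNAs, within the annotated gene for *Snord83b* and *Snord68* and in the bases before it for *Snord43*. In windows of 50 bases centered on the peaks, TGATGA was on the transcript strand in 5 of the 11 peaks in members (45.5%), in 14 of 26 other peaks at snoRNA genes (53.8%), and in 21 of all 487 other peaks (4.31%), and on the opposite strand in 0, 0, and 4.

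Hosts with a peak did not share a direction upon loss of Ago2. *Rpl4*, *Rpl23*, and *Rpl23a* were lower in both backgrounds on the TPM scale, and *Rpl13* and *Rpl13a* were higher in both. *Rpl3* was at 1137 and 1115 TPM in WT and at 1078 to 1178 TPM in *Ago2* KO, and did not pass (log2 fold change 0.02, adjusted p = 0.89). TPM values here count the host's transcript, and snoRNA levels were not analysed here.

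Other genes of the translation machinery gave a setting for the members. Of 78 mitochondrial ribosomal proteins, 30 were higher and 15 lower in *Ago2* KO against WT (38.5% and 19.2%), beside 14% and 42.4% of all genes. In the centred values 53 were higher and 1 lower, beside 31.5% and 21% of all genes. On the TPM scale the median log2 fold change of these 78 was 0.18, with the lowest adjusted p for *Mrps30* (1.04, adjusted p = 4.5e-05). Of 20 5′TOP mRNAs outside the ribosome, 7 were higher and 7 lower (35% and 35%). Among them were the elongation factor *Eef2* (0.44, adjusted p = 0.0040) and the splicing factor *Hnrnpa1* (-0.93, adjusted p = 8.7e-05). In *Ago2* KO/CLIPΔ against CLIPΔ the counts for these lists were 21 higher and 14 lower (26.9% and 17.9%), and 6 higher and 9 lower (30% and 45%). Of all genes, 12.8% were higher and 42.1% lower in that comparison.

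Genes that build ribosomes had shares of calls near those of all genes in *Ago2* KO against WT (14% higher and 42.4% lower). Of 35 assembly factors, 6 were higher and 17 lower in *Ago2* KO against WT (17.1% and 48.6%, median -0.37), and 11 were higher and 11 lower in the centred values. For this list and the next ones, the centred values of all genes had 31.5% higher and 21% lower. Nucleolin, *Ncl* (-1.26, adjusted p = 3.7e-05), *Utp3* (-1.23, adjusted p = 4.4e-05), and the AAA ATPase *Mdn1* (-1.30, adjusted p = 2.5e-05) had the lowest adjusted p. Of 14 genes of RNA polymerase I and its factors, which transcribe ribosomal RNA, 1 was higher and 7 lower (7.14% and 50%, and 4 and 2 genes in the centred values), with -2.05 for *Taf1d* (adjusted p = 0.00038). In *Ago2* KO/CLIPΔ against CLIPΔ the lower shares were larger than that of all genes. There 11.4% of the assembly factors were higher and 60% lower, and 0% and 57.1% of the polymerase I list, beside 12.8% and 42.1% of all genes. Of 7 genes with a like symbol outside the rule, such as *Rpl22l1*, 3 were higher and 3 lower. Of 10 genes of the p53 response, which disturbed ribosome assembly can induce, 1 was higher, *Bax* (0.68, adjusted p = 0.00017), and 5 lower, among them *Mdm2* (-1.25, adjusted p = 0.0062) and *Cdkn1a* (-0.84, adjusted p = 0.00044), which is 10% and 50% of the list, and 1 was higher and 3 lower in the centred values. In CLIPΔ against WT, 1 gene of these lists passed, *Mdn1*, which was lower, and none passed in *Ago2* KO/CLIPΔ against *Ago2* KO.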

How the data were processed

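RNA-seq of 12 libraries and Trim71 CLIP-seq peaks were used. The authors mapped RNA-seq reads to mm10 with HISAT2 2.1.0, used HTSeq to count reads over each gene's longest transcript, and deposited TPM per library without pooling. The CLIPΔ columns carry a code, read as CLIPΔ by elimination. Tools in the submitters' notes also include CASAVA 1.4, SAMtools, cutadapt, and edgeR. For CLIP-seq, the authors mapped with STAR, called peaks over input with CLIPper, and deposited the read count and annotation class of each common peak. Peak starts were taken to count from 0. Table totals were 998656 to 999501 TPM, and all 12 columns were used.

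log2(TPM + 1) was fitted with limma 3.58.1 (R 4.3.3, eBayes with trend), with genotype as the factor over 12 libraries, keeping genes that averaged 1 TPM or more. p-values were Benjamini-Hochberg adjusted over 11287 genes. The fit was tested on simulated data. GC content, length, coding sequences, and snoRNA genes came from GENCODE vM21 and RefSeq (GRCm38.p6), read with Python 3.11.15 and biopython 1.88. Start sites were found for 62 of 82 members.

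The members and the gene lists were chosen with earlier results of these data known. Genes were named by role, by the highest and lowest fold changes, by the lowest adjusted p, by WT level, and by CLIP-seq peaks. The 5'TOP factor *Eef2* was chosen after its values were seen. Same-numbered *Ago2* KO and *Ago2* KO/CLIPΔ libraries deviated together (correlations of 0.433, 0.32, 0.42, and 0.36 over all genes), and their pairing comes from the labels' replicate numbers. Over the members the correlations were 0.504, -0.0114, 0.349, and -0.0833, and 4 of the 8 libraries correlated best with their own number over all genes. For WT and CLIPΔ the correlation over all genes was 0.715. This is 1 value, since with 2 libraries a group the deviations of replicates 1 and 2 mirror each other. Alternatives were the pseudocount (0.1), no filter, the scale, the model, a replicate block, and subsets of libraries. Values of 3 members are not reported here by name, while counts, medians, and sums include all 82.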

Additional observations from a re-analysis of the deposited data

Results flagged for a closer look

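Among the named members, 72 groups of 4 libraries were screened for a library far from the other 3, and 2 were found, where chance gives about 1 in 20. For *Rpl41* in *Ago2* KO/CLIPΔ, the gap between replicate 4 (6017 TPM) and the nearest of the others (6379 TPM) was 0.915 of the group's range. For *Rpsa* in *Ago2* KO/CLIPΔ, the gap between replicate 4 (1227 TPM) and the nearest of the others (1166 TPM) was 0.846 of the range. Both gaps passed Dixon's 95% critical value for 4 samples and were small beside the levels.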

How the results depend on the processing

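Depth is unknown, so the counting error of low members such as *Rpl3l* and *Rpl29* cannot be estimated, and the first principal component (69.4% of the variance) separated libraries with and without Ago2. On values centred on the library median, the members' median log2 fold change became 0.22 in *Ago2* KO against WT and 0.24 in *Ago2* KO/CLIPΔ against CLIPΔ, and signs turned for *Rpl11* in the first (0.047) and *Rplp2* (0.0017) and *Rpl10l* (0.060) in the second, since centring adds one value to every gene of a library. The blocked fit for the pairing by replicate number gave a members' median of -0.25 in *Ago2* KO against WT, called 63 of all genes higher and 117 lower in *Ago2* KO/CLIPΔ against *Ago2* KO, where the fit without it called 31 and 68, gave 18 members higher and 32 lower in *Ago2* KO/CLIPΔ against CLIPΔ, and ended 1 call of a named member. Fits with only the groups compared gave 0 members in CLIPΔ against WT and 3 in *Ago2* KO/CLIPΔ against *Ago2* KO. With replicates 1 and 2 only, the median in *Ago2* KO/CLIPΔ against CLIPΔ was -0.18, and 0 members passed in *Ago2* KO/CLIPΔ against *Ago2* KO. Replicates 3 and 4 gave 50 in that comparison, in a fit that held only the genotypes without Ago2. Of the alternatives added after seeing the data, removal of the GC trend gave medians of 0.12 and 0.15 upon loss of Ago2 and turned *Rpl5* (0.25 and 0.14). Averaged close replicates gave 0 members in CLIPΔ against WT, 24 in *Ago2* KO against WT, 14 in *Ago2* KO/CLIPΔ against CLIPΔ, and 0 in *Ago2* KO/CLIPΔ against *Ago2* KO. Centring with the block gave medians of 0.13 and 0.19, and *Rpl10l* at 0.15. The causes of these differences were not tested.

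With 1 library left out, the members' median ran from -0.053 (without WT replicate 2) to 0.16 (without WT replicate 1) in CLIPΔ against WT, from -0.21 (without WT replicate 2) to -0.047 (without WT replicate 1) in *Ago2* KO against WT, and from -0.0093 (without WT replicate 1) to 0.18 (without WT replicate 2) in the interaction. Members called ran from 25 (without CLIPΔ replicate 1) to 44 in *Ago2* KO/CLIPΔ against CLIPΔ, and from 0 to 1 in *Ago2* KO/CLIPΔ against *Ago2* KO. Of 78 calls of named genes, 45 held under every alternative run and 5 changed sign under at least 1.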
